A study of Mus musculus with 5 samples.

Results

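Secreted Wnt antagonists were examined in mouse embryonic fibroblasts, the mesenchymal cells grown out of mouse embryos, that were labelled MDR2-/- or MDR2+/+. They comprised 9 genes, Sfrp1, Sfrp2, Frzb, Sfrp4, Sfrp5, Wif1, Dkk1, Dkk2 and Dkk3, of 21630 genes tested on the arrays. The genes were taken by symbol from the main probe sets of the annotated table, and each had 1 probe set of 25 to 34 probes. They were selected on the log2 differences of this same knockout against wild-type comparison, known from earlier work on these arrays, so those differences are given here as a description, without a test of their own. The cells came from littermate wild-type and mdr2-/- embryos and were passaged on a 3T3 schedule, a fixed routine of dilution and regrowth through which rodent fibroblasts become immortal. RNA of passage 40 was amplified, labelled with biotin and hybridised to Affymetrix arrays, with 3 arrays labelled knockout (replicates 1, 2 and 3) and 2 labelled wild type (replicates 2 and 3). Mdr2 is an older name of Abcb4, a transporter that moves phosphatidylcholine into bile. No label gives the strain, the embryos' age or sex, or whether replicates were separate cultures, so errors and p-values measure the spread between these arrays, which may be technical.

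Wnt proteins are secreted lipid-modified ligands that bind Frizzled receptors and the co-receptors Lrp5 and Lrp6, and canonical signalling stabilises beta-catenin, which then drives transcription with TCF and LEF factors. Secreted antagonists act outside the cell by different routes. The Sfrp proteins and Frzb carry a cysteine-rich domain related to that of the Frizzled receptors and bind Wnt ligands, and Wif1 binds Wnt ligands through a different domain. Dkk1 and Dkk2 instead bind Lrp5 and Lrp6, with the Kremen proteins as further receptors, while Dkk3 is a divergent member of its family. Several of these genes mark mesenchymal territories of the embryo, and their promoters are known as frequent sites of DNA methylation in tumours.

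The arrays were alike in overall level. The median log2 signal of all genes lay between 4.27 and 4.33 on every array, and the 95th percentile of 45 antigenomic background probe sets lay between 5.71 and 6.08. A value above that percentile of its own array is called above background below. Abcb4 itself did not check the labels: its log2 signal was 6.002, 4.628 and 5.744 on knockout arrays against 4.054 and 3.949, mostly below background. It was thus higher, not lower, on the arrays labelled knockout (log2 difference 1.46 ± 0.50, SE; limma adjusted p = 0.358), and the groups did not overlap. No label states which part of the gene was disrupted. Xist, the RNA of the inactive X chromosome, was higher (log2 difference 4.41 ± 0.14, SE) and the Y-linked Ddx3y was lower (-4.40 ± 0.16, SE) on the arrays labelled knockout, with limma adjusted p-values of 0.0250 and 0.0267. Both calls ended without knockout replicate 1 or 3, as limma then called 0 genes (2297 and 2196 at an unadjusted p under 0.05). Genotype label and sex-linked expression cannot be told apart in any difference below. Of 10 fibroblast markers 9 were above background on at least 1 array, and the exception was Lum. None of 6 epithelial, 5 endothelial, 4 skeletal muscle or 3 hepatocyte markers was above background on any array, and among 6 leukocyte and 5 neural markers only Cd68 (6.25 on wild-type replicate 2) and Map2 were. In cultures measured in bulk, fewer cells that express a gene and less RNA per cell cannot be told apart.

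Of the 9 antagonists, 3 were above background on any array, beside 7721 of the 21630 genes tested. These 3 antagonists had the largest differences between the groups among the 9. Sfrp2 and Dkk3 were measured above background on the 3 arrays labelled knockout and on neither wild-type array, while Sfrp1 was above background on all 5 arrays and lower on those labelled knockout. The other 6, Frzb, Sfrp4, Sfrp5, Wif1, Dkk1 and Dkk2, were not above background on any array.

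**Figure D1:**
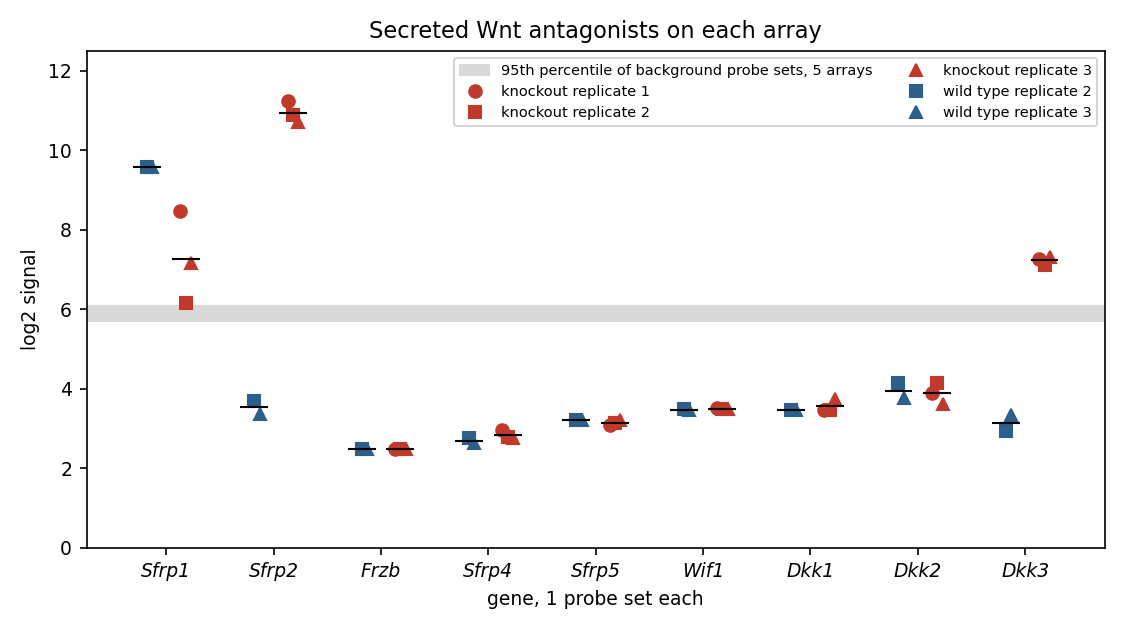
Log2 signal of each antagonist gene on each array, with knockout arrays in red and wild-type arrays in blue; the marker shape is the replicate number, the short black lines are group means, and the grey band spans the 95th percentile of the background probe sets over the 5 arrays. Sfrp2 and Dkk3 lie above the band only on knockout arrays, Sfrp1 lies above it on every array, and the other 6 genes lie below it throughout.

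Sfrp2 encodes a secreted Frizzled-related protein with a cysteine-rich domain and a netrin-like domain, and is expressed in embryonic mesenchyme. Its probe set, 10492798, is annotated to the plus strand of chromosome 3, 83570243 to 83578608 (mouse build NCBIM37). Knockout replicates 1, 2 and 3 gave log2 signals of 11.22, 10.87 and 10.70, and wild-type replicates 2 and 3 gave 3.69 and 3.37. All knockout arrays were high, both wild-type arrays were within the background range, and the groups did not overlap. The knockout mean was 10.93 ± 0.27 (SD, n = 3) and the wild-type mean 3.53 ± 0.23 (SD, n = 2), giving a log2 difference of 7.40 ± 0.21 (SE). Set against the wild-type mean, the single knockout arrays differed by 7.69, 7.34 and 7.17. Since the wild-type signal lay below background, a cautious bound sets the knockout mean against the 95th percentile of background on the wild-type arrays, and by that bound Sfrp2 was at least 35.2-fold higher. When each array was left out in turn, the log2 difference lay between 7.24 and 7.56.

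The promoter of Sfrp2 is shown because it belongs to the antagonist that differed most, beside that of Frzb, which encodes a protein with the same cysteine-rich domain and stayed at background on every array. Both are RefSeq promoter windows of build GRCm38.p6, from 250 bases before to 50 bases after the annotated start, printed 5′ to 3′ on the gene's strand with each CG dinucleotide in capitals. The Sfrp2 window is chr3:83766071-83766370 on the plus strand and the Frzb window is chr2:80447347-80447646 on the minus strand.
Sfrp2: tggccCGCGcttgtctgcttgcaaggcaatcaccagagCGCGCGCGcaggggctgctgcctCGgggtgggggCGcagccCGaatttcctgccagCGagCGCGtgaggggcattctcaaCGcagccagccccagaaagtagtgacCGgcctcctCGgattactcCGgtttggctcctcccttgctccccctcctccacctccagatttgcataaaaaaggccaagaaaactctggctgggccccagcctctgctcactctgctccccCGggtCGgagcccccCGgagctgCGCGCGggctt
Frzb: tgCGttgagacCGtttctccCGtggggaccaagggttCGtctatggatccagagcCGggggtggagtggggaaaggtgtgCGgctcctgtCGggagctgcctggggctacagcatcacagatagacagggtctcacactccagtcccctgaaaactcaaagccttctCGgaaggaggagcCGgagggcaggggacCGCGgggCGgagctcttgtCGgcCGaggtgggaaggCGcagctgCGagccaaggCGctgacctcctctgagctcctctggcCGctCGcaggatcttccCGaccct
The Sfrp2 window held 22 CG dinucleotides and the Frzb window 20, against a median of 7 over 32851 promoter windows of 300 bases. Of all windows, 76.9% held fewer than the Sfrp2 window and 73.5% fewer than the Frzb window. The GC contents of the Sfrp2 and Frzb windows were 66% and 64.7%, against a median of 52.7%. RefSeq windows were at hand for 6 of the 9 genes, with no entry for Sfrp1, Sfrp4 and Dkk3. Among the others at background, Wif1 had 25 CG dinucleotides, Sfrp5 had 15, Dkk2 had 11 and Dkk1 had 9. The Sfrp2 window did not have the most CG dinucleotides, since that of Wif1 had more. The TCF/LEF motif CTTTGAT, searched on both strands, was found in none of the 6 windows and in 3.73% of all windows. The GC box GGGCGG, searched on both strands, occurred in the windows of Frzb, Sfrp5, Wif1 and Dkk2 and in 35.7% of all windows. The motif TATAAA, searched on both strands, occurred in those of Wif1, Dkk1 and Dkk2 and in 13.6% of all windows. Neither the GC box nor TATAAA occurred in the Sfrp2 window.

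Dkk3 encodes a secreted glycoprotein with the paired cysteine-rich domains of the Dickkopf family. Its probe set, 10567010, is annotated to the minus strand of chromosome 7, 119259531 to 119302571 (NCBIM37). Its log2 signals were 7.26, 7.10 and 7.32 on the knockout replicates in the same order, against 2.94 and 3.35 in wild type. The knockout arrays lay close together and above background, the wild-type arrays lay below it, and the groups did not overlap. The knockout mean was 7.23 ± 0.11 (SD, n = 3) and the wild-type mean 3.14 ± 0.29 (SD, n = 2), giving a log2 difference of 4.08 ± 0.16 (SE). Against the background of the wild-type arrays Dkk3 was at least 2.70-fold higher, a lower bound that is far under the 16.9-fold ratio of the measured means. The log2 difference lay between 3.88 and 4.29 when each array was left out in turn.

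Sfrp1 encodes another secreted Frizzled-related protein, close in domain structure to Sfrp2, and is the antagonist for which the difference ran the other way. Its probe set, 10570957, is annotated to the plus strand of chromosome 8, 24521990 to 24560106 (NCBIM37). Log2 signals of 8.46, 6.16 and 7.16 were measured on the knockout arrays (replicates 1, 2 and 3), and of 9.57 and 9.58 on the wild-type arrays (replicates 2 and 3). Knockout replicate 2 was the lowest and lay just above the background of its array, knockout replicate 1 was the nearest to wild type, and the groups did not overlap. The knockout mean was 7.26 ± 1.15 (SD, n = 3) and the wild-type mean 9.57 ± 0.01 (SD, n = 2), giving a log2 difference of -2.32 ± 0.78 (SE). Set against the wild-type mean, knockout replicates 1, 2 and 3 differed by -1.12, -3.42 and -2.41 on the log2 scale. The ratio of wild type to knockout was 4.98-fold with all arrays, 7.55-fold without knockout replicate 1 and 3.40-fold without knockout replicate 2.

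The spread of Sfrp1 among the knockout arrays was wide for these data. Of 6447 genes with a mean above background, 15 had a larger standard deviation over the knockout arrays, and the median of those standard deviations was 0.152. For 12 of these 15 genes, as for Sfrp1, the lowest of the knockout arrays was replicate 2. They included Dcn, which encodes the matrix proteoglycan decorin and is a fibroblast marker, at 10.2, 7.61 and 10.4 on the knockout arrays against 11.4 and 11.1. They also included Egln3, a hypoxia-induced prolyl hydroxylase, at 8.32, 5.19 and 8.42 against 4.60 and 3.72. These genes were chosen after their values were seen. Their part in the Sfrp1 difference was not tested.

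The 6 remaining antagonists had log2 signals between 2.47 and 4.15 over all arrays, all below background, and the groups overlapped for each. Frzb, also known as Sfrp3, was at 2.47, 2.49 and 2.49 on the knockout arrays and at 2.49 on both wild-type arrays. Wif1 was at 3.52, 3.49 and 3.49 against 3.49 and 3.47. For both genes the values differed by less than 0.06 over the 5 arrays. Sfrp4 was at 2.96, 2.78 and 2.76 against 2.76 and 2.63, and its probe set is annotated to a span of 75764 bases on chromosome 13. Sfrp5 was at 3.08, 3.13 and 3.22 against 3.20 on both wild-type arrays. Neither moved beyond 0.33 over the 5 arrays. Dkk1, the best-known Lrp6 antagonist, was at 3.48, 3.48 and 3.76 against 3.46 and 3.48. Its relative Dkk2, which also binds Lrp6, was at 3.89, 4.15 and 3.61 against 4.15 and 3.76. The range of Dkk2 over the arrays, 0.54, was the widest of the 6, and its values were spread alike in both groups (SD 0.27 in each). At signals this low a difference may be hidden, and the relative levels of the 6 remain unmeasured. The background probe sets had a median of 2.14 on every array. A signal under their 95th percentile therefore does not show that a gene was absent.

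**Figure D2:**
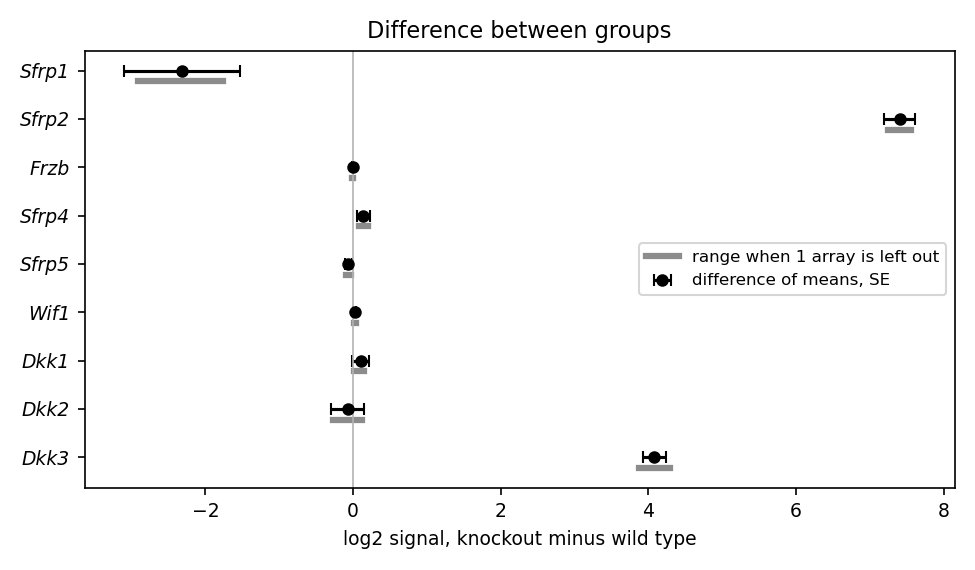
Difference in log2 signal between the knockout and wild-type means for each antagonist, with black bars for the moderated standard error and grey bars for the range when each array in turn is left out. Sfrp2 and Dkk3 lie far to the right, Sfrp1 lies to the left with the widest error, and the other 6 lie near 0.

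The groups did not overlap for 2 antagonists on the higher side and 1 on the lower side, beside 10.6% and 14.4% of all genes tested (25.0% in either direction). Since the genes were chosen with this comparison in view, nothing is read from these counts. The median log2 difference of the 9 genes was 0.02, against 0.00 for all genes tested.

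The 9 genes lie on 7 chromosomes, with Sfrp2 and Dkk2 on chromosome 3 and Sfrp5 and Dkk1 on chromosome 19. The 3 nearest genes on each side of Sfrp2, Dkk3 and Sfrp1 were taken by position to see whether nearby genes differed in a like way. Of 6 neighbours of Sfrp2, 0 passed limma's Benjamini-Hochberg adjusted p of 0.05, where 0.301% of all genes tested did, and their log2 differences lay between 0.08 and 1.21. Tlr2, an innate immune receptor gene that starts 61.6 kb beyond Sfrp2, had a log2 difference of 0.62 ± 0.19 (SE; limma adjusted p = 0.304). The highest value was that of Mnd1, a meiotic recombination gene 313.2 kb away, at 1.21 ± 0.18 (SE; limma adjusted p = 0.136), and it was below background on every array. Of 6 neighbours of Dkk3, 0 passed, and all had differences of the opposite sign, between -0.76 and -0.05. Usp47, a deubiquitinase gene that ends 4.6 kb from Dkk3, had a log2 difference of -0.58 ± 0.13 (SE; limma adjusted p = 0.211). Of 6 neighbours of Sfrp1, 0 passed, and the differences ran from -1.21 for Golga7, a Golgi protein gene 154.4 kb away, to 1.51 for Tcim (limma adjusted p = 0.112 and 0.316). At an unadjusted p under 0.05, where limma placed 5.36% of all genes tested as higher and 8.29% as lower, the neighbours of Sfrp2 had 4 higher and 0 lower, those of Dkk3 had 0 higher and 2 lower, and those of Sfrp1 had 1 higher and 2 lower. These are counts of 6 genes each that share a region, and nothing is read from them.

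**Figure D3:**
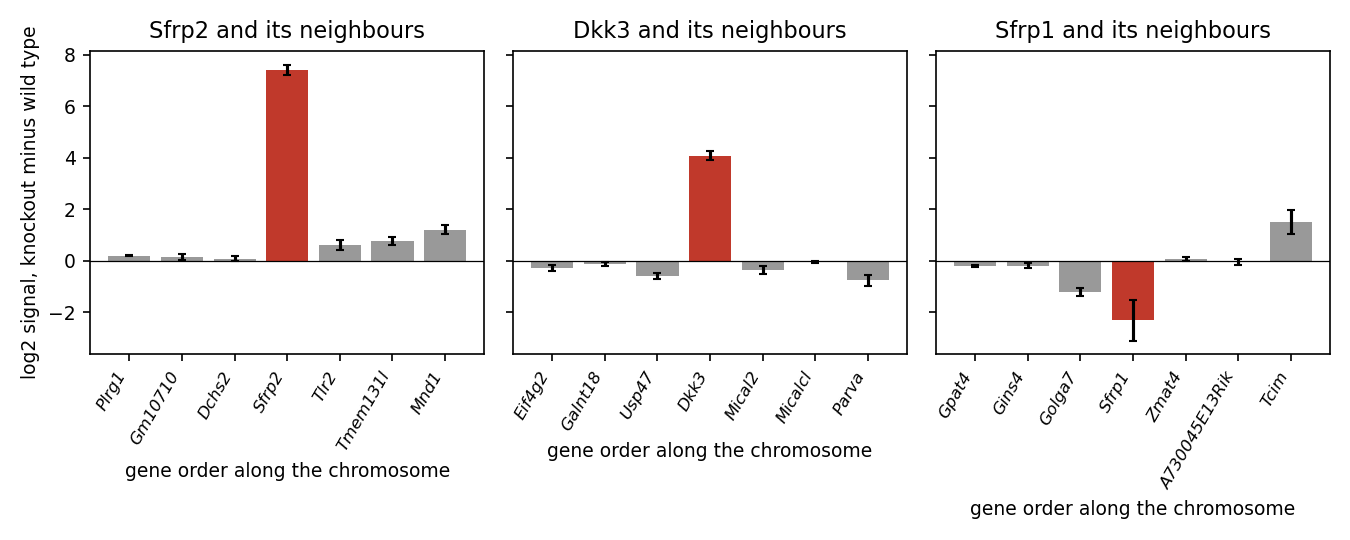
Difference in log2 signal between the knockout and wild-type means for Sfrp2, Dkk3 and Sfrp1 (red bars) and the 3 nearest genes on each side (grey bars), in chromosome order, with moderated standard errors. No neighbour of Sfrp2 or Dkk3 has a difference near that of the antagonist gene itself.

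Genes whose values ran most like those of Sfrp2 and Dkk3 were found by the Euclidean distance between log2 values centred on the mean of the 5 arrays. Nearest to Sfrp2 were Penk, the precursor of enkephalin peptides, at a distance of 1.03, the cytochrome P450 gene Cyp1b1 at 1.26 and the neprilysin gene Mme at 1.52. Penk was at 11.1, 11.6 and 11.3 on the knockout arrays against 4.76 and 3.37, so that its log2 difference was 7.26 ± 0.50 (SE; limma adjusted p = 0.0569, above the threshold). Nearest to Dkk3 were the homeobox gene Hoxc10 at 0.51, the autotaxin gene Enpp2 at 0.52 and Xist at 0.55. The limma adjusted p-values were 0.0267 for both Cyp1b1 and Mme, 0.0240 for Hoxc10 and 0.0296 for Enpp2. These genes, Penk and Xist included, were picked for values like those of a selected member, so their p-values are no independent test. The likeness is over 5 arrays that fall into 2 groups, so it mostly shows genes with a like difference between groups.

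None of the 79 other Wnt pathway genes listed passed limma's adjusted p of 0.05, where 0.301% of all genes tested did, and 9 were higher and 5 lower at an unadjusted p under 0.05, where 5.36% and 8.29% of all genes tested were. Their median log2 difference was 0.02, against 0.00 for all genes tested. Above background on any array were 31 of them, beside 7721 of all 21630 genes tested. The groups did not overlap for 19 on the higher side and 11 on the lower side, beside 10.6% and 14.4% of all genes tested. All 79 were measured. They are given below by role, and values are log2 signals or differences in log2 signal, knockout minus wild type.

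Other secreted Wnt inhibitors were mostly at background, as were most genes. Not above it on any array were 7 of the 8 inhibitors, beside 13909 of all 21630 genes tested. Among the 7 were Dkk4, Dkkl1, Sost, Sostdc1 and Notum. The exception was Igfbp4, an insulin-like growth factor binding protein that also blocks Wnt reception, at 8.90, 7.03 and 7.83 on the knockout arrays against 9.43 and 8.80. As for Sfrp1, the lowest value was on knockout replicate 2, but the groups overlapped, and the log2 difference of -1.20 ± 0.67 (SE) did not pass (limma adjusted p = 0.554).

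Among 19 Wnt ligands only Wnt5a, which chiefly signals without beta-catenin, was above background on any array. It was at 7.52, 7.04 and 7.18 on the knockout arrays against 6.91 and 6.43, a log2 difference of 0.58 ± 0.23 (SE; limma adjusted p = 0.450). The groups did not overlap for Wnt5a, though the gap between them was small beside the spread within each. The other ligands, Wnt10a, Wnt10b and Wnt5b among them, were below background on every array.

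Of 15 Frizzled receptors and co-receptors 9 were above background on any array and 0 passed the adjusted threshold. At an unadjusted p under 0.05 limma placed 4 as higher and 1 as lower, beside 5.36% and 8.29% of all genes tested. Fzd6 was at 5.02, 5.13 and 4.67 on the knockout arrays against 5.88 and 6.47, a log2 difference of -1.24 ± 0.26 (SE; limma adjusted p = 0.202). Its knockout values were all below background. Fzd8 lay on the other side, at 6.05, 6.65 and 5.91 against 5.21 and 5.25 (log2 difference 0.97 ± 0.27, SE; limma adjusted p = 0.274). Fzd8 was above background on knockout replicates 1 and 2 alone. Lrp6, the co-receptor that Dkk1 binds, was at 7.73, 7.72 and 7.56 against 7.05 and 7.28, a log2 difference of 0.50 ± 0.10 (SE; limma adjusted p = 0.192). For all 3 genes the groups did not overlap. Over all 15 genes they did not overlap for 6 higher and 2 lower, beside 10.6% and 14.4% of all genes tested. The Dkk receptor Kremen1 was above background on every array with a log2 difference of 0.17 ± 0.14 (SE; limma adjusted p = 0.578), and Kremen2 was at background.

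R-spondins raise Wnt reception by clearing the ubiquitin ligases Rnf43 and Znrf3 from the cell surface, through Lgr4, Lgr5 and Lgr6. Of these 9 genes only Rspo2 was above background on any array, at 6.18, 5.69 and 5.50 on the knockout arrays against 7.44 and 6.83. Its values on knockout replicates 2 and 3 were below background. The groups did not overlap, and the log2 difference of -1.35 ± 0.31 (SE) did not pass (limma adjusted p = 0.225). Intracellular transducers were measured well, with 10 of 11 above background on any array, and 0 passed limma's adjusted threshold. At an unadjusted p under 0.05 there were 1 higher and 0 lower, beside 5.36% and 8.29% of all genes tested. Ctnnb1, which encodes beta-catenin, was between 9.08 and 9.29 on all arrays (log2 difference 0.03 ± 0.07, SE). The transcription factor gene Tcf7l2 was at 8.96, 8.77 and 8.80 against 8.43 and 8.14, a log2 difference of 0.56 ± 0.12 (SE; limma adjusted p = 0.208).

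Targets of beta-catenin signalling lay on both sides of 0, with 0 of 15 past the adjusted threshold. At an unadjusted p under 0.05 limma placed 3 as higher and 1 as lower, beside 5.36% and 8.29% of all genes tested. Axin2, the negative-feedback gene most often read as a sign of canonical signalling, was below background on every array, at 4.22, 4.22 and 4.64 against 4.22 and 3.92. Nkd2, another feedback inhibitor, was at 3.85, 4.24 and 4.49 on the knockout arrays against 6.01 and 6.02, a log2 difference of -1.82 ± 0.22 (SE; limma adjusted p = 0.110). Only its wild-type values were above background. Myc, which many pathways control, was at 9.02, 9.06 and 9.60 against 7.64 and 6.95, a log2 difference of 1.93 ± 0.32 (SE; limma adjusted p = 0.158). Fosl1, an AP-1 subunit gene, was at 7.01, 5.67 and 7.45 against 4.67 and 4.27, a log2 difference of 2.24 ± 0.64 (SE; limma adjusted p = 0.287). It was above background on knockout replicates 1 and 3 alone. Ccn4, above background on all 5 arrays, was at 6.31, 6.53 and 6.55 against 7.79 and 6.84, a log2 difference of -0.86 ± 0.33 (SE; limma adjusted p = 0.427). The groups did not overlap for Nkd2, Myc, Fosl1 or Ccn4. Over all 15 targets they did not overlap for 6 higher and 4 lower, beside 10.6% and 14.4% of all genes tested. Nkd2 passed without the genes whose value was equal on every array (limma adjusted p = 0.0417), on quantile normalization (limma adjusted p = 0.0403) and with array medians subtracted (limma adjusted p = 0.0482), and over all alternatives its adjusted p ran from 0.0403 to 0.356.

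**Figure D4:**
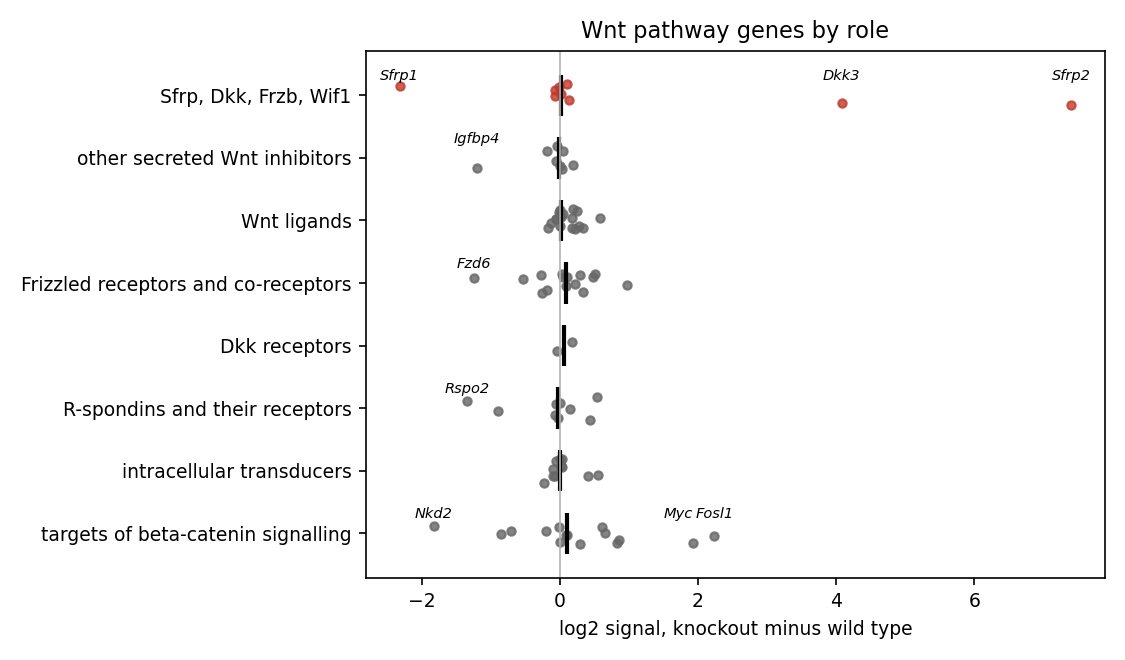
Difference in log2 signal between the knockout and wild-type means for the antagonists (red points) and for 79 other Wnt pathway genes (grey points) by role, with the median of each list as a black line. The values of the listed pathway genes lie between -1.82 and 2.24. The antagonists were selected on this comparison and are plotted to show their values alone.

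Fibroblast markers were set beside these results, since both kinds of gene vary between mesenchymal cells. Of the 10 markers 0 passed limma's adjusted p of 0.05. At an unadjusted p under 0.05 there were 2 higher and 3 lower, beside 5.36% and 8.29% of all genes tested. Thy1, a surface glycoprotein of fibroblast subsets, was at 10.6, 9.70 and 10.2 on the knockout arrays against 5.60 and 5.22, a log2 difference of 4.73 ± 0.31 (SE; limma adjusted p = 0.0523). It was above background on the knockout arrays alone, like Sfrp2 and Dkk3, and its groups did not overlap. Over the 10 markers the groups did not overlap for 2 higher, Thy1 and Lum, and for 6 lower. The 6 were Col1a1, Col1a2, Col3a1, Vim, Dcn and Fn1. The shares of all genes tested were 10.6% higher and 14.4% lower. The collagen gene Col3a1 had a log2 difference of -1.02 ± 0.15 (SE; limma adjusted p = 0.138), and the platelet-derived growth factor receptor gene Pdgfra one of -0.10 ± 0.25 (SE; limma adjusted p = 0.862). What the Thy1 difference has to do with those of Sfrp2 and Dkk3 was not tested.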

How the data were processed

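Array data were processed by the authors in Affymetrix Expression Console, per the submitters' processing notes, whose version, summary method and normalization no source used here states. The deposited values are log2 signals, 1 per probe set and array, as the authors made them, and were left unchanged. The second deposited table held the same log2 values (0 of 35556 probe sets differed by over 1e-05). Of the probe sets, 7115 controls and 3437 without a single gene symbol were left out. Symbols were updated through a GRCm38.p6 gene table, used for names alone, and the brightest probe set stood for each of 21630 genes. Array coordinates are taken as NCBIM37, because 2759 of the 2955 rows quoting an NCBIM37 position lie over it.

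The knockout and wild-type arrays were fitted with limma 3.58.1 under R 4.3.3, by lmFit and eBayes without a block, which leaves 3 residual degrees of freedom. P-values were adjusted over all genes by Benjamini-Hochberg, with a threshold of 0.05. Errors of log2 differences are its moderated standard errors. The script was tested on simulated data. The number of arrays limits the precision, no detection call was used, and the size of a difference against a group at background is uncertain. Alternatives were subtraction of array medians, quantile normalization, removal of genes under the 40th percentile of mean level or with equal values on all arrays, the mean over a gene's probe sets, a separate fit of every probe set, trended and robust prior variances, the replicate number as a block, and leaving out each array.

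The members and lists were chosen with earlier results of these data known. How many members passed limma's threshold was planned as a count and is not reported, because the selection used the same differences. In each of the 7 pathway lists the rule named genes past the threshold and up to 4 others with the largest difference and a higher group mean above the median gene. It also named the members, Abcb4, Xist, Ddx3y, Eif2s3y and the 3 nearest profiles of the 2 members that differed most. Genes it named whose values are not given above include Fzd5, Lgr4, Rnf43, Rspo3, Tcf7l1, Gsk3b, Dvl2 and Eif2s3y. Other genes, such as Axin2, Ctnnb1, the fibroblast markers and the chromosomal neighbours, were chosen after values were seen.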

Additional observations from a re-analysis of the deposited data

How the results depend on the processing

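Over 14 alternatives the differences of Sfrp2, Dkk3 and Sfrp1 kept their direction, with log2 values from 7.24 to 7.56, from 3.88 to 4.29 and from -2.92 to -1.76. With the replicate number as a replicate block the log2 differences were 7.26 for Sfrp2, 4.07 for Dkk3 and -2.92 for Sfrp1. Deviations of same-numbered arrays from their group means correlated at -0.17 for replicate 2 and -0.14 for replicate 3. With 2 wild-type arrays their deviations mirror each other, so these values cannot tell whether the shared replicate numbers pair the arrays.

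Over all genes limma called 65, against 363 with quantile normalization, 250 with array medians subtracted, 270 without dim genes, 359 without genes of equal values and 0 with the replicate block (2319 at an unadjusted p under 0.05), and between 0 and 335 when arrays were left out in turn. The count was 0, 2 and 0 without knockout replicate 1, 2 and 3, with 2297, 3292 and 2196 genes at an unadjusted p under 0.05, against 2952 with every array. Among Wnt pathway genes the count was 0, and it was 1 (Nkd2) with quantile normalization, with array medians subtracted and without genes of equal values. It lay between 0 and 1 when arrays were left out in turn, the 1 being Wnt4 without wild-type replicate 3 (limma adjusted p = 0.0493). The main fit held 1589 genes with equal values on all arrays. Its prior variance had 0.626 degrees of freedom and corresponded to a standard deviation of 0.0282. Without those genes the values were 1.44 and 0.0843. Some fits also held fewer genes or samples. The cause of the changes in counts was not tested. Signal over background limits what can be said of the 6 antagonists below it: the sign of the small differences of Dkk2, Frzb and Wif1 varied or reached 0 across the alternatives.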
